A study of Homo sapiens with 9 samples.

Results

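Receptor tyrosine kinases are single-pass membrane proteins whose intracellular kinase is switched on when a ligand brings receptors together. The phosphorylated tails then recruit adaptor proteins that start the RAS, PI3K and STAT pathways. In breast cancer the family is known for EGFR, ERBB2, MET, AXL, FGFR1 and IGF1R, and AXL and EPHA2 are known from mesenchymal-like tumours.

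The transcripts of 48 receptor tyrosine kinase genes were followed in 9 RNA sequencing libraries, out of 26636 genes listed in all of them. The genes were chosen by name, as the known human receptors of this class found in the gene tables. All but FLT1 were listed in all 9 libraries, which left 47. FLT1, a VEGF receptor, was listed in 5 libraries, at 0 to 0.0595 FPKM. FPKM is the number of reads per kilobase of transcript, scaled to the depth of the library, so levels of different genes can be set side by side.

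All 9 libraries were labelled BT549, an established line from a triple-negative breast carcinoma that is known as mesenchymal-like, grown in RPMI medium with insulin and fetal bovine serum. Cells received 5 µl of a 10 µM siRNA stock and were harvested 48 h later. The groups were a control siRNA (siNC) and 2 siRNAs against WFDC21P, a transcribed pseudogene, called siWFDC21P-1 and siWFDC21P-2. Each group held 3 libraries. No other allele or agent is named, and nothing states how many separate transfections the libraries stand for, so p-values measure the spread between these libraries, which may be technical.

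The 9 libraries did not share 1 expression profile. Clustering on the 12986 tested genes that are not receptor genes gave 3 sets, called cell backgrounds here, which cut across the labels. Background 1 consisted of replicates 1 and 2 of siWFDC21P-1 with siNC replicate 1 as their control. Background 2 consisted of replicate 3 of siWFDC21P-1 with siNC replicate 2. In background 3 were all siWFDC21P-2 libraries, with siNC replicate 3 as control. Pearson's r of log2(FPKM + 1) was 0.927 to 0.986 within a background and 0.66 to 0.746 between them. Background 3 was also the set with its own style of library names and a lower depth, 16.6 to 17.8 M recovered reads against 28.7 to 30.2 M in the other 5 libraries, so these 3 properties cannot be told apart. Of 12 epithelial marker genes, 12 reached 1 FPKM in every library of background 2, against 3 each in backgrounds 1 and 3 (11 of the 12 were listed in background 3). The 3 were KRT7, KRT8 and KRT18 in both, at unlike levels. KRT8 was at 93.4 to 232 FPKM in background 1, 293 and 135 in background 2 and 3.99 to 5.44 in background 3. Summed, the epithelial markers were at 216 to 491, 1401 to 2011 and 18.6 to 37.9 FPKM in backgrounds 1, 2 and 3. Of 11 mesenchymal markers, 11 did so in background 3, 5 in background 1 and 2 in background 2. The 2 in background 2 were COL1A1, at 1.85 and 2.61 FPKM, and FN1, at 11.2 and 5.91. FN1 had its highest mean there, with 1.45 to 3.71 FPKM in background 1 and 4.56 to 9.13 in background 3. VIM, the mesenchymal filament protein vimentin, stood at 0.699 and 0.517 FPKM in background 2, and CDH2 was at 0 in both its libraries, so these 2 markers of the labelled line's known phenotype were at or near 0 there. CDH2 was near 0 in background 1 too, at 0 to 0.00698 FPKM, while VIM stood at 38.5 to 41.0, and background 3 alone had CDH2 at 14.7 to 18.1. Because the backgrounds were drawn from the data, differences between them are described below and not tested. Knockdown libraries are set against the siNC library of their own background.

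The start regions of 5 receptor genes that averaged at least 10 FPKM in one background and under 1 FPKM in another are shown before their levels. They were picked after their values were seen, to show different patterns over the backgrounds, and EPHB3, FGFR1 and ERBB3 also met that description. KIT and KDR stood out in background 2, ROR2 in background 1, PTK7 was near 0 in background 1, and AXL was near 0 in background 2. Each sequence is the 200 bases from 250 to 51 before the outermost annotated start, 5′ to 3′ on the strand of the gene, from RefSeq (GRCh38.p14). Capitals mark GC boxes, GGGCGG on either strand, and E-boxes, CAGGTG on either strand. GC boxes are the known motif of SP1-type factors, and this E-box is the form bound by ZEB and SNAI repressors.
KIT: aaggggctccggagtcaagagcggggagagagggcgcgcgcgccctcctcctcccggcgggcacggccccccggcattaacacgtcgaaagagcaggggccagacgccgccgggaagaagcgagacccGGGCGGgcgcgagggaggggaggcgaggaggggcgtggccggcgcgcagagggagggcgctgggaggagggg
KDR: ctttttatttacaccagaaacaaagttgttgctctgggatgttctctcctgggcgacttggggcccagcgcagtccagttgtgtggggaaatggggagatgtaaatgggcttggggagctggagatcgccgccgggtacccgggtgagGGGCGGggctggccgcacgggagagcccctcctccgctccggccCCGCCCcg
PTK7: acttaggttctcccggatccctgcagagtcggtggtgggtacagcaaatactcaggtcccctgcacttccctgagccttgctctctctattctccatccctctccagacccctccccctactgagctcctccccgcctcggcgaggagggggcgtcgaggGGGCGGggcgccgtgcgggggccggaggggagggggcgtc
ROR2: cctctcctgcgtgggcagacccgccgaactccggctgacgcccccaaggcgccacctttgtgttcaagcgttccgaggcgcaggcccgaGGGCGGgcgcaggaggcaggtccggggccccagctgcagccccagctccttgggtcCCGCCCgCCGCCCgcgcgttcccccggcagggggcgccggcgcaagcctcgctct
AXL: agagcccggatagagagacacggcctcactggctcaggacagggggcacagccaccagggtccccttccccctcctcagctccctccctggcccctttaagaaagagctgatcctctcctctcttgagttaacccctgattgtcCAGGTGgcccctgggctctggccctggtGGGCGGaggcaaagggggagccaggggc
The KIT window lies at chr4:54657707-54657906 on the plus strand and the KDR window at chr4:55125646-55125845 on the minus strand. The PTK7 window lies at chr6:43076064-43076263 on the plus strand, the ROR2 window at chr9:91950279-91950478 on the minus strand and the AXL window at chr19:41218973-41219172 on the plus strand.

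The KIT window held 26 CpG dinucleotides and the ROR2 window 24, against a median of 7.0 over the 27305 genes with a window. The KDR and PTK7 windows held 13 each, and the AXL window held 3. All 5 windows held a GC box, from 1 in KIT, PTK7 and AXL to 2 in KDR and 3 in ROR2. Of 45 receptor genes with a window, 33 held at least 1 GC box, and 34.5% of all genes did. An E-box was in 5 of the 45, AXL among them, and in 14.9% of all genes. Across the receptor genes the median was 13.0 CpG per window, with a range of 0 to 37. A match describes these letters only. Several genes have further annotated starts, and which start was used in these libraries was not measured.

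The levels of the receptors fell into 3 profiles, shown in the heat map of the 48 genes. Counting genes at 1 FPKM or more in every library of a background, 17 receptor genes were present in background 1, 28 in background 2 and 17 in background 3. A background with fewer libraries meets this more easily, and background 2 held the fewest. By a mean of at least 1 FPKM the counts were 19, 28 and 21. Over all genes they were 12034, 12661 and 12204 by that mean. The same 11 were in all 3 backgrounds: EGFR, ERBB2, TYRO3, MET, MST1R, IGF1R, EPHA2, EPHB4, DDR1, DDR2 and RYK. Another 15 reached that level in none. Background 2 alone had 12, background 1 alone had 2 (FGFR3 and ROR2), and background 3 alone had 1 (EPHA5). With the line drawn at 2 FPKM these counts were 8, 4 and 0, and at 0.5 FPKM they were 13, 3 and 0. Genes present in a single background, in all or in none were not counted over all genes. The receptors' counts of this kind therefore cannot be called particular to receptors. EPHA5 had the higher mean in background 1, at 2.0 FPKM against 1.41 in background 3. In bulk libraries, fewer cells of a type and less RNA per cell cannot be told apart.

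**Figure D1:**
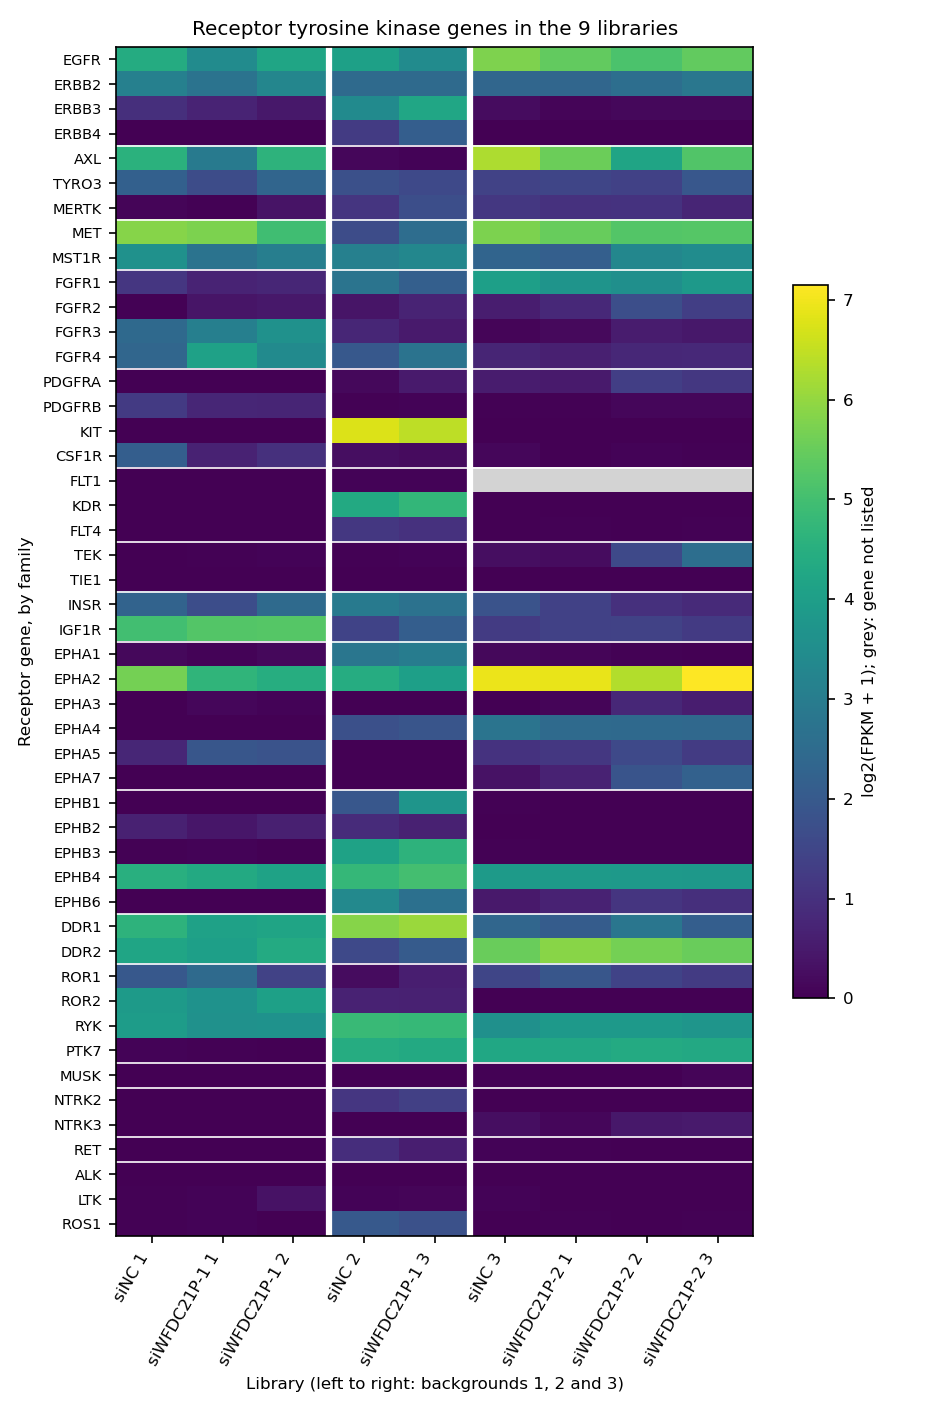
Level of each of the 48 receptor genes (rows, grouped by family) in the 9 libraries (columns), as log2(FPKM + 1), with white vertical lines between backgrounds 1, 2 and 3 and grey where FLT1 is not listed. KIT and KDR are bright in the 2 middle columns alone, AXL and MET are dark there, and ROR2 is bright in the 3 left columns alone.

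In 16 receptor genes the mean of some background reached 10 FPKM, and 8 of these 16 had a mean under 1 FPKM in another: KIT, KDR, ROR2, PTK7, AXL, ERBB3, EPHB3 and FGFR1. Among all 6437 genes reaching that mean, the share was 10.6%. In 7 of 28 tested receptor genes the libraries of background 1 did not overlap those of the other backgrounds, with a share of 27.7% over all genes. The same count was 17 of 28 for background 2 (31.7% over all genes) and 11 of 28 for background 3 (35.7% over all genes). Some of the 28, such as KIT and KDR, passed the filter through 1 background, so these counts describe the receptors and support nothing further. The 28 are the receptor genes that averaged 1 FPKM or more over all libraries. The other 20 stayed below it or, in 1 case, were not listed throughout.

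The summed level of the receptors differed less than its make-up. It was 253 to 317 FPKM in background 1, 391 and 404 in background 2 and 319.7 to 437 in background 3, or 0.0887 to 0.156% of all FPKM. In siNC replicate 1 the 5 highest receptors were MET, EPHA2, IGF1R, DDR1 and AXL, with 57.8% of the sum. In siNC replicate 2 they were KIT, DDR1, RYK, EPHB4 and PTK7, with 61.7%. In siNC replicate 3 they were EPHA2, AXL, EGFR, MET and DDR2, with 79.6%. No gene was among the 5 highest in all 3 control libraries.

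**Figure D2:**
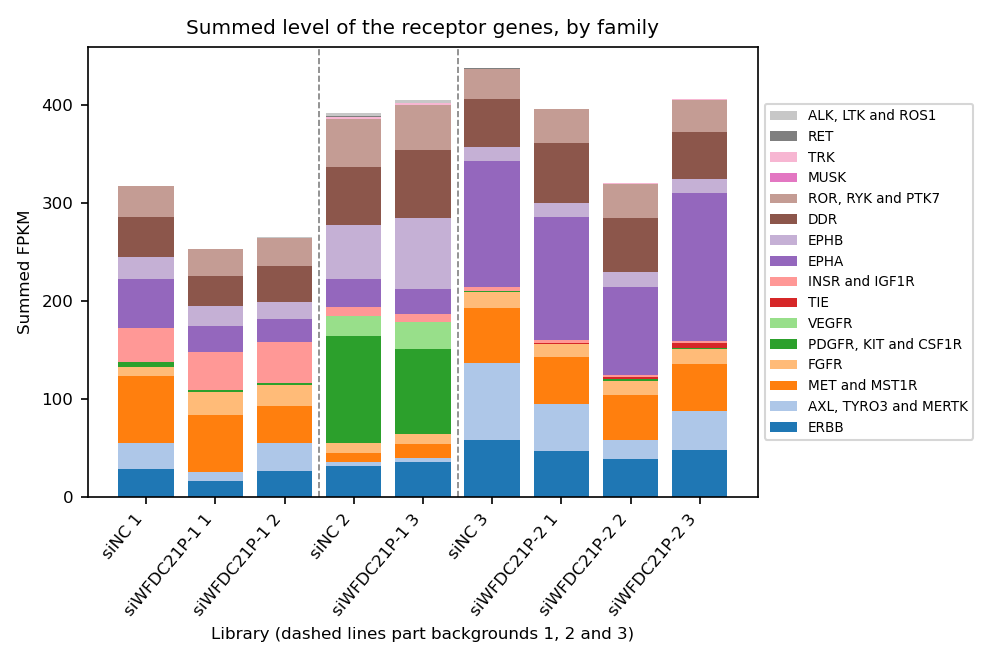
Summed FPKM of the receptor genes in each library, stacked by family, with dashed lines between the 3 backgrounds. The sums lie between 253 and 437 FPKM, and the PDGFR, KIT and CSF1R segment is large in background 2 while the EPHA segment is largest in background 3.

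In the ERBB family, EGFR, the receptor for EGF and HB-EGF, was present in all 9 libraries. Its levels were 19.9 FPKM in siNC replicate 1 with 9.83 and 17.6 in the knockdown libraries of that background. They were 15.6 in siNC replicate 2 with 9.83 in its knockdown library. In background 3 they were 53.4 in siNC replicate 3 and 42.0, 33.7 and 41.9 in the siWFDC21P-2 libraries. Background 3 lay above both other backgrounds without overlap, and every knockdown library lay below its own control. EGFR maps to chromosome 7, 55019021 to 55211628, plus strand (hg38, GENCODE 29), and an exon overlaps the antisense gene EGFR-AS1. Whether the counting used strand is not stated, and without it their reads cannot be separated. In all, 15 of the 48 receptor genes share exon sequence with another gene, 11 of them with one on the opposite strand.

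ERBB2, the ligand-less partner of the family, was level by comparison at 4.11 to 8.67 FPKM in all libraries. ERBB3, a neuregulin receptor with a weak kinase that signals through ERBB2, was at 9.81 and 17.9 FPKM in background 2. It was at 0.382 to 0.964 in background 1 and 0.073 to 0.17 in background 3, so the ERBB2 and ERBB3 pair was at 1 FPKM or more in background 2 alone. ERBB4, another neuregulin receptor, reached 1.37 and 3.42 FPKM in background 2 and at most 0.0179 elsewhere.

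AXL, the GAS6 receptor known from mesenchymal-like and drug-tolerant tumour cells, was at 22.8 FPKM in siNC replicate 1 and 6.53 and 23.5 in its knockdown libraries. In background 3 it was at 76.0 in the control and 45.7, 16.9 and 36.0 in the siWFDC21P-2 libraries. In background 2 it was at 0.096 and 0.0552, from 14 and 8 reads, while the lowest AXL library elsewhere had 974 reads. Its window is the one with the E-box printed above, and ZEB1, a factor that binds such E-boxes, was at 5.14 to 5.33 FPKM in background 1, 0.00823 to 0.0735 in background 2 and 19.4 to 33.1 in background 3. ZEB1, of a group named above as repressors, thus had its highest level in background 3, as AXL did on average. The windows of EPHA1, EPHB2, FGFR4 and MST1R also held an E-box, and these genes had their lowest means in background 3. Whether ZEB1 bound any of these windows was not measured, and a role for it was not tested. The other GAS6 receptors, TYRO3 at 1.62 to 4.02 FPKM and MERTK at 0.0221 to 2.29, were lower than AXL in backgrounds 1 and 3. In background 2 both were higher than AXL, with TYRO3 at 2.35 and 1.97 and MERTK at 1.15 and 2.29.

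MET, the hepatocyte growth factor receptor, separated the same backgrounds as AXL. It was at 56.9, 52.5 and 30.3 FPKM in background 1 and 52.2, 44.1, 36.8 and 37.2 in background 3, against 2.16 and 4.87 in background 2. Its relative MST1R, the receptor of macrophage-stimulating protein, was at 11.2, 5.65 and 7.35 FPKM in background 1 and at 7.67 and 8.91 in background 2. In background 3 MST1R was at 3.94 in the control, 3.52 in siWFDC21P-2 replicate 1, and 8.83 and 10.1 in replicates 2 and 3.

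The 4 FGF receptors split by background. FGFR1 was at 1.21, 0.653 and 0.693 FPKM in background 1, at 5.79 and 3.51 in background 2 and at 15.3, 11.9, 10.9 and 13.2 in background 3, with the control highest in each. FGFR1 shares exon sequence with LETM2 on the opposite strand. FGFR3 had the opposite order, with 4.41, 7.5 and 11.2 FPKM in background 1, 0.702 and 0.42 in background 2 and 0.0762 to 0.47 in background 3. FGFR4 was at 4.16 in siNC replicate 1 and 15.9 and 9.76 in its knockdown libraries, at 2.94 and 5.57 in background 2, and at 0.548 to 0.759 in background 3. FGFR2 stayed at or under 2.28 FPKM.

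KIT, the stem cell factor receptor, gave the widest contrast of the 48 genes. It was at 109 and 86.5 FPKM in background 2, from 17235 and 13520 reads, and had 0, 3 and 0 reads in background 1 and 1, 0, 0 and 0 reads in background 3. KDR, the main VEGF receptor, was at 19.4 and 25.7 FPKM in background 2, at 0 in background 1 and at no more than 0.0093 in background 3. Its reads could not be recovered from the FPKM values. KIT and KDR are neighbours on chromosome 4, 338 kb apart. PDGFRA, 360 kb from KIT on the other side, did not share this contrast, with 0.105 and 0.417 FPKM in background 2 and 0.431 to 1.51 in background 3. FLT4, another VEGF receptor, was at 1.24 and 1.01 FPKM in background 2 and at most 0.026 elsewhere. KDR is also an endothelial gene. Of 5 endothelial markers none reached 1 FPKM in both libraries of background 2, where they summed to 0.487 to 0.697 FPKM. Among them PECAM1 was at 0.592 and 0.312 FPKM and ERG at 0. The leukocyte gene PTPRC was also at 0 in both, while CD14 stood at 36.1 and 29.6 FPKM.

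Among the other receptors of that class, PDGFRB, a PDGF receptor, was at 1.3, 0.688 and 0.656 FPKM in background 1 and at most 0.0921 elsewhere. CSF1R, the CSF-1 receptor, was at 3.36 in siNC replicate 1 with 0.617 and 0.988 in its knockdown libraries, and at most 0.199 elsewhere. These 2 genes lie 464 bases apart on chromosome 5, on the same strand. Their levels were highest in the same library, siNC replicate 1.

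IGF1R, the IGF-1 receptor, stood out in background 1, at 30.7, 36.4 and 37.7 FPKM, against 1.73 and 3.38 in background 2 and 1.34 to 1.66 in background 3. The insulin receptor INSR was closer between backgrounds, at 3.88, 2.22 and 4.57, then 6.74 and 5.42, then 2.57, 1.62, 0.983 and 0.807 FPKM. The growth medium contained insulin in all groups.

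EPHA2, the ephrin-A receptor known from mesenchymal-like breast cancer, was the highest receptor in all 4 libraries of background 3, at 121, 119, 79.5 and 141 FPKM. It was at 49.3, 24.4 and 20.9 in background 1 and at 20.3 and 15.4 in background 2. EPHB4, an ephrin-B2 receptor, was nearly level at 13.1 to 31.0 FPKM. EPHB3 was at 16.5 and 23.5 FPKM in background 2 and at no more than 0.0458 elsewhere, where it had 0 to 6 reads. EPHB1 was at 2.84 in siNC replicate 2 and 12.2 in siWFDC21P-1 replicate 3, from 559 and 2377 reads, and had 0 to 4 reads elsewhere. EPHA5 had 0 FPKM in background 2, 0.713, 2.76 and 2.53 in background 1 and 1.05 to 1.97 in background 3. It overlaps its antisense gene EPHA5-AS1. Of the other ephrin receptors, EPHA1 and EPHB6 reached 5.2 to 9.21 FPKM in background 2, and EPHA4 was at 4.38 to 5.7 in background 3, 2.36 and 2.68 in background 2 and 0 in background 1.

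The collagen receptors DDR1 and DDR2 had opposite orders. DDR1, known from epithelia, was at 57.2 and 65.9 FPKM in background 2, 23.6, 16.1 and 17.0 in background 1 and 3.23 to 5.99 in background 3. DDR2, known from mesenchyme, was at 45.1, 57.9, 49.7 and 44.5 FPKM in background 3, 17.6, 15.3 and 19.8 in background 1 and 2.0 and 3.18 in background 2. Neither gene's backgrounds overlapped.

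Among the WNT-binding receptors, ROR2, a WNT5A receptor, was at 13.9, 11.4 and 15.7 FPKM in background 1, 0.601 and 0.563 in background 2 and 0.0103 or less in background 3, where 1 read was recovered from 4 libraries. ROR1 was at 1.38 to 4.52 FPKM in backgrounds 1 and 3 and 0.174 and 0.519 in background 2. RYK varied less, at 11.2 to 14.4 in background 1, 28.0 and 26.5 in background 2 and 11.0 to 13.4 in background 3. PTK7, a planar cell polarity receptor with an inactive kinase, was at 20.7 and 19.2 FPKM in background 2 and 18.0 to 19.6 in background 3, but had 11, 9 and 5 reads in background 1. A gene present at like levels in 2 backgrounds was thus near 0 in the other. The remaining receptors were low: MUSK, TIE1, ALK, LTK and NTRK3 did not pass 0.42 FPKM, RET reached 0.902, and NTRK2 and ROS1 reached 1.54 and 2.97 in background 2.

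Several ligands did not follow their receptors from background to background. Of a list of 55 ligand genes, 54 were listed and 16, 24 and 27 reached 1 FPKM in every library of backgrounds 1, 2 and 3. KITLG, the ligand of KIT, was at 26.5, 32.1 and 42.4 FPKM in background 1, where KIT had 0 to 3 reads, and at 1.25 and 1.6 in background 2, where KIT was highest. CSF1 was at 67.0, 91.0, 71.3 and 54.2 FPKM in background 3, where CSF1R did not pass 0.0834, and at no more than 0.0189 in background 1, where CSF1R was highest. GAS6 was at 3.7 and 3.62 FPKM in background 2, where AXL had 14 and 8 reads but TYRO3 and MERTK were present, and at 0.45 to 0.697 in background 1. It was highest in background 3, at 6.6 to 9.36, where siNC replicate 3 had the highest AXL level of all libraries. WNT5A, a ligand of ROR2 and ROR1, was at 21.8, 8.75 and 22.5 FPKM in background 1, where both receptors were highest, 1.62 and 0.572 in background 2 and 10.1 to 17.9 in background 3. Its order of backgrounds was that of ROR1. WNT5B, a related ligand, was at 11.7 to 17.9 FPKM in background 3 and at no more than 0.0657 elsewhere, while ROR2 was near 0 in background 3. HGF, the ligand of MET, was at 0.22 FPKM or less in all libraries. GAS6, WNT5A, HGF and ALKAL2 were added to the named ligands after their values were seen. MDK, a growth factor reported as a ligand of ALK, was at 94.1, 87.4, 43.5 and 38.6 FPKM in background 3 although ALK was at 0.0166 FPKM or less there. ALKAL2, an established ligand of ALK and LTK, was at 0.717 to 2.07 FPKM in that background and at 0.0316 to 0.861 elsewhere. NRG1, FGF5, GDNF and TGFA were listed for 1 naming style only and are not compared.

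FGF2 and FGFR1 shared an order instead. FGF2 was at 18.9, 4.24 and 8.97 FPKM in background 1, 23.0 and 12.7 in background 2 and 77.4, 59.2, 26.5 and 35.9 in background 3, with each control highest in its background. HBEGF, a ligand of EGFR, was at 3.26, 2.44 and 1.75, then 1.39 and 1.19, then 13.8, 7.14, 3.03 and 5.67 FPKM, again with each control highest.

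**Figure D3:**
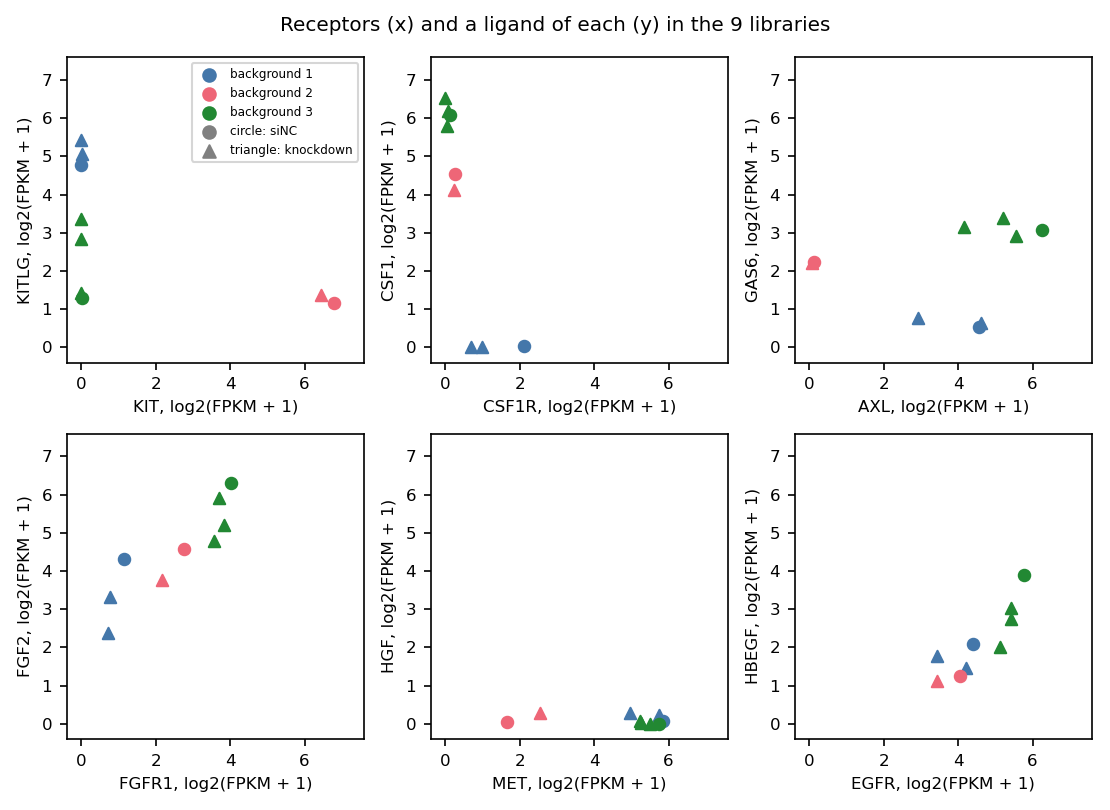
Level of 6 receptors (x axis) and of 1 ligand of each (y axis), both as log2(FPKM + 1), in the 9 libraries coloured by background, with circles for siNC and triangles for knockdown libraries. KIT with KITLG and CSF1R with CSF1 lie along the axes, where one of the pair is near 0, while FGFR1 with FGF2 and EGFR with HBEGF run from low in background 1 or 2 to high in background 3.

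Adaptors and inhibitors also marked the backgrounds. NCK2, an adaptor that links receptors to the actin machinery, was at 0 in all 3 libraries of background 1, 18.8 and 28.0 FPKM in background 2 and 5.54 to 6.31 in background 3. SHC1, the adaptor that recruits GRB2, was at 127 to 152 FPKM in background 3 and 21.1 to 40.9 elsewhere. PIK3R1, the regulatory subunit of PI3K, was at 2.7 to 2.98 in background 1, 8.41 and 16.1 in background 2 and 11.3 to 33.2 in background 3. IRS2, the adaptor of the insulin and IGF-1 receptors, was at 18.0 to 24.2 FPKM in background 1, where IGF1R was highest, and at no more than 6.91 elsewhere.

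ERRFI1, a feedback inhibitor of EGFR, was at 286 FPKM in siNC replicate 3 and 178, 153 and 164 in the siWFDC21P-2 libraries, against 7.25 to 32.8 elsewhere. It was highest in the background where EGFR was highest. CBLC, a ubiquitin ligase that removes receptors, was at 15.0 and 18.3 FPKM in background 2 and at no more than 0.0777 elsewhere. LRIG1, which lowers ERBB receptors, was at 17.4 and 18.9 in background 2 and 0.172 to 1.18 elsewhere. Among the co-receptors, NRP1 and CD44 were highest in background 3, at 15.5 to 25.6 and 105 to 126 FPKM, and GPC1 was highest in background 1, at 17.3 to 20.8. Of the shedding enzymes, ADAM12 was at 8.67 to 28.0 FPKM in background 3 and 0.0205 or less elsewhere, and ADAM9 was at 127 to 186 in background 3 against 15.2 to 44.1. TIMP3, an inhibitor of these enzymes, was at 12.1 to 26.5 FPKM in backgrounds 1 and 2 and 0.375 or less in background 3.

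The second question was whether the receptors changed when WFDC21P was targeted. The target itself was at 3.08, 0.129 and 6.87 FPKM in siNC replicates 1 to 3, or 99, 4 and 123 reads. It was at 0.0629, 0.767 and 0.227 FPKM in the siWFDC21P-1 libraries and 4.13, 3.32 and 2.12 in the siWFDC21P-2 libraries. In backgrounds 1 and 3 each knockdown library lay below its control, at 2.04 and 24.9% and at 60.2, 48.3 and 30.8%. The upper ends of their 95% intervals, which cover counting error only, were 7.58 and 38.9% and 80.5, 66.2 and 44.4%. In background 2 the knockdown library was at 176% of a control with 4 reads (95% interval 44.8 to 821). By an exact 2-sided permutation test over the labelled groups (n = 3 each), p was 0.3 for siWFDC21P-1 and 1.0 for siWFDC21P-2, where the smallest possible p is 0.1. That test ignores the backgrounds, between which the siNC libraries differ widely, so it cannot decide whether the target was lowered within one. The label of siWFDC21P-2 rested on titles, since the library names of its 3 replicates carry different numbers.

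Neither siRNA gave a receptor gene past the test. Across all 13014 tested genes, with group and background in the model, limma called 3 genes at an adjusted p of at most 0.05 when siWFDC21P-1 was tested (0.0231%). With siWFDC21P-2 it called 0 (0.0%). Of the 28 tested receptors it called 0 for either. At an unadjusted p under 0.05 there were 5 receptors for siWFDC21P-1, where 1790 of all genes (13.8%) were, and 0 for siWFDC21P-2, where 682 of all genes (5.24%) were. Run on recovered reads, limma-voom called 0 receptors too. The median log2 difference of the 28 was -0.05 with siWFDC21P-1 and 0.0 with siWFDC21P-2, and over all tested genes it was 0.03 and 0.02. Several of the 28, such as KIT, KDR, ROR2 and EPHB3, did not pass 0.0271 FPKM in background 3, which holds all siWFDC21P-2 libraries. Such genes had almost no room to fall there, which limits what the count and the median for siWFDC21P-2 can show. With the background in the model, siWFDC21P-2 is set against siNC replicate 3 alone, with the spread taken from all 9 libraries.

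FGFR4 came closest, and its read depth was ample in backgrounds 1 and 2. With siWFDC21P-1 it stood at 382% of the matched control in replicate 1 (95% interval 349 to 419), 235% in replicate 2 (213 to 259) and 189% in replicate 3 (168 to 214). Those intervals are exact binomial ones on recovered reads and cover counting error only. In the siWFDC21P-2 libraries it was at 82.9, 111 and 115%, from 46 to 63 reads, and all 3 intervals included 100%. The fitted log2(FPKM + 1) difference was 1.11 ± 0.25 (SE) for siWFDC21P-1, higher in 3 of 3 libraries, with a limma adjusted p of 0.143. The difference between the siRNAs was -1.09 ± 0.4 (SE), with a limma adjusted p of 0.83, and it was the single receptor under an unadjusted 0.05 there, where 5.4% of all genes were.

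The other receptors with an unadjusted p under 0.05 for siWFDC21P-1 had smaller fitted differences on the log2(FPKM + 1) scale. EPHA2 was at 49.5, 42.4 and 75.9% of its own controls, a fitted log2 difference of -0.79 ± 0.28 (SE) with a limma adjusted p of 0.29. FGFR1 was at 53.8, 57.0 and 60.5%, a difference of -0.48 ± 0.16 (SE) with a limma adjusted p of 0.264. IGF1R was at 119, 123 and 196%, a difference of 0.44 ± 0.17 (SE) with a limma adjusted p of 0.315. EPHA5 was at 387 and 355% in background 1 and at 0 FPKM in both libraries of background 2, a difference of 0.62 ± 0.26 (SE) with a limma adjusted p of 0.358. For each of these 5 receptors, FGFR4 included, no siWFDC21P-1 library lay on the other side of its control. They were picked by p from these same libraries, and replicates 1 and 2 share siNC replicate 1, so the shared direction adds no support.

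For siWFDC21P-2, INSR and AXL had the smallest p among the receptors. INSR was at 63.3, 38.3 and 31.5% of siNC replicate 3, a fitted log2 difference of -0.76 ± 0.34 (SE) with a limma adjusted p of 0.756. AXL was at 60.1, 22.3 and 47.4%, a difference of -1.29 ± 0.71 (SE) with a limma adjusted p of 0.756. AXL also varied between libraries given the same siRNA: against the same control, siWFDC21P-1 replicate 1 stood at 28.7% and replicate 2 at 103%.

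EGFR and FGFR1 were the 2 of 28 receptors with all 6 knockdown libraries on one side of their own control, both below it. Over all tested genes the share on one side was 18.7%, with 7.92% below and 10.8% above, so the receptors' count is not above the background. EGFR was at 49.5, 88.6 and 63.1% in the siWFDC21P-1 libraries and 78.6, 63.1 and 78.4% in the siWFDC21P-2 libraries. Its fitted log2 differences were -0.58 ± 0.25 (SE) and -0.44 ± 0.31 (SE), with limma adjusted p of 0.365 and 0.756. FGFR1 was at 77.8, 71.4 and 86.5% in the siWFDC21P-2 libraries, a difference of -0.33 ± 0.2 (SE) with a limma adjusted p of 0.756. The count was 4 without siWFDC21P-1 replicate 2 (22.3% over all genes), 7 without its replicate 3 (25.6% over all genes), 3 without siWFDC21P-2 replicate 1 (26.8%) and 4 without its replicate 3 (21.0%). The receptors' shares were 7.14 to 25.0% over the leave-outs, never above the share over all genes.

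**Figure D4:**
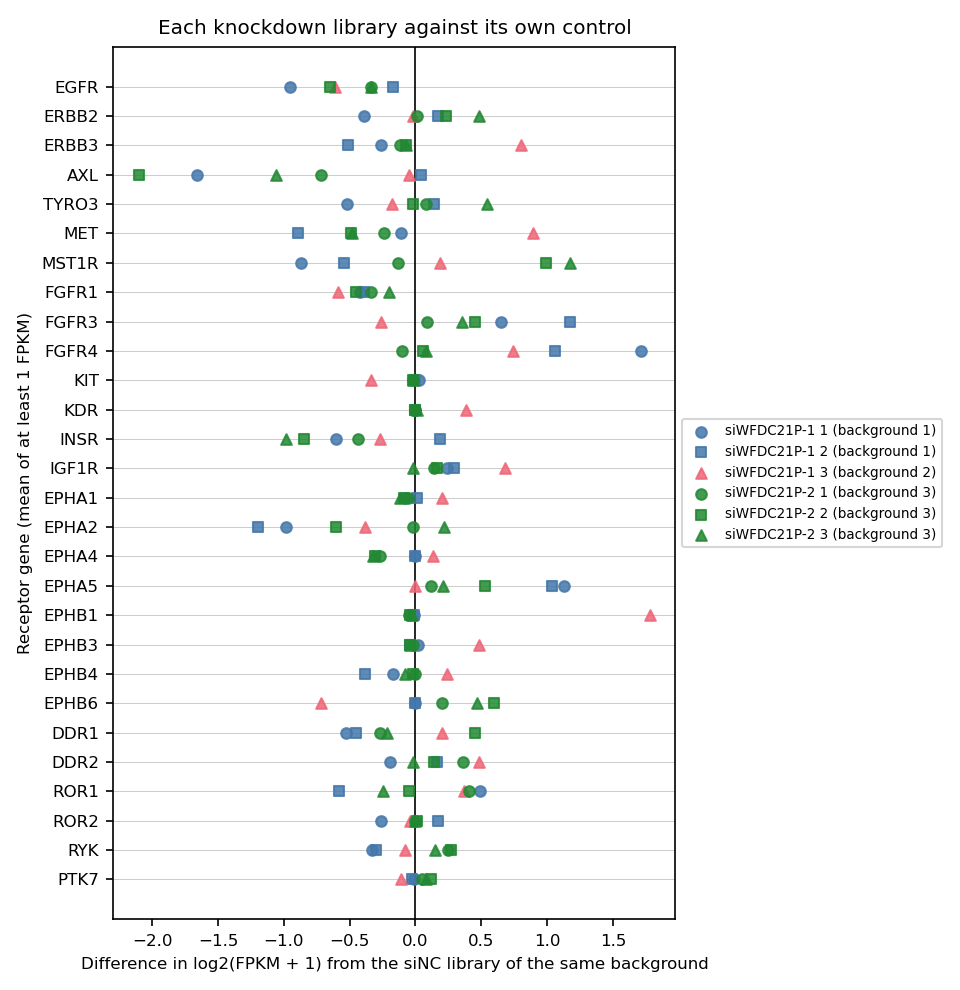
Difference in log2(FPKM + 1) of each knockdown library from the siNC library of the same background (x axis) for the 28 tested receptors (rows), coloured by background and shaped by replicate. All 6 points lie left of 0 for EGFR and FGFR1, and the siWFDC21P-1 points of FGFR4 lie at 0.74 to 1.71 while its siWFDC21P-2 points lie near 0.

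Within background 1, both knockdown libraries lay above the control for 4 of 19 receptors (40.3% over all genes) and below it for 8 of 19 (33.5% over all genes). The 4 were FGFR3, FGFR4, IGF1R and EPHA5, and the 8 were MET, MST1R, EGFR, EPHA2, EPHB4, DDR1, RYK and CSF1R. A difference of at least 1 unit of log2(FPKM + 1) was seen in 4 of the 19 in siWFDC21P-1 replicate 1 (8.66% over all genes). It was seen in 5 in replicate 2 (6.37% over all genes), with FGFR4 and EPHA5 higher and CSF1R lower in both. Receptors were counted in a background if they averaged 1 FPKM or more there. EPHA5 met that through its knockdown libraries and CSF1R through its control, so their place in these counts supports nothing further. In background 2, siWFDC21P-1 replicate 3 lay above its control for 16 of 28 receptors (54.3% over all genes) and below it for 12 (45.7%). EPHB1 was the 1 receptor that differed by at least 1 unit on that scale (4.57% over all genes), at 428% of its control. ERBB4 and MET, at 249 and 225% of their controls, differed by 0.9 and 0.89, since adding 1 FPKM shrinks differences of low genes. In background 3, all 3 siWFDC21P-2 libraries lay above the control for 6 of 21 receptors (28.0% over all genes) and below it for 6 (25.0% over all genes).

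The siWFDC21P-2 libraries did not move together. In replicate 1, 0 of 21 receptors differed from siNC replicate 3 by at least 1 unit of log2(FPKM + 1), against 4 in replicate 2 and 4 in replicate 3. Over all genes of that background the shares were 1.33, 10.5 and 9.57%. Adding 1 FPKM kept some larger ratios out of these counts. EPHA7 at 231% in replicate 1 differed by 0.35, and INSR at 38.3 and 31.5% in replicates 2 and 3 by -0.85 and -0.98. FGFR2, TEK, EPHA7 and AXL made up the 4 in replicate 2, and TEK, EPHA7, MST1R and AXL the 4 in replicate 3. The 21 averaged 1 FPKM or more in this background. FGFR2, TEK and EPHA7 did so only through replicates 2 and 3, so their place in these counts supports nothing further. TEK, the angiopoietin receptor, had 15 reads in the control, then 14, 159 and 408. EPHA7 was at 0.263 FPKM in the control, then 0.609, 2.64 and 3.67, and FGFR2 was at 0.475, then 0.768, 2.28 and 1.5. The collagen gene COL3A1, a mesenchymal marker, moved with them, at 5.75 FPKM in the control, then 23.0, 242 and 221, while VIM was at 310.4, then 309, 162 and 178. The summed mesenchymal markers ranged from 489 to 887 FPKM in this background, and their part in the receptor values was not tested. Without siWFDC21P-2 replicate 1, limma called 902 genes for that siRNA and 153 for siWFDC21P-1, of which 0 were receptors in either case.

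No partner of the receptors passed the test either. Of 85 tested genes on the 5 lists of ligands, co-receptors, adaptors, inhibitors and shedding enzymes, limma called 0 for either siRNA. At an unadjusted p under 0.05, 8.69% of all genes were higher and 5.06% lower for siWFDC21P-1, and 2.89% were higher and 2.35% lower for siWFDC21P-2. Of the 28 receptors, 3 were higher and 2 lower for siWFDC21P-1. On the lists, siWFDC21P-1 had 0 ligands higher and 4 lower of 31, 3 adaptors higher and 1 lower of 19, and 2 inhibitors higher and 1 lower of 20. Among 9 co-receptors it had 1 higher and 1 lower, and among 6 shedding enzymes 1 higher and 2 lower. For siWFDC21P-2 the counts were 1 ligand, 1 adaptor and 1 inhibitor lower, and 1 co-receptor and 2 shedding enzymes higher.

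ADAM15, a membrane protease, came closest to the threshold. It was at 18.6, 45.1 and 51.4 FPKM in background 1, 11.9 and 30.2 in background 2 and 18.0, 24.6, 25.4 and 25.3 in background 3, above its control in all 6 knockdown libraries. The fitted log2 difference for siWFDC21P-1 was 1.30 ± 0.15 (SE), with a limma adjusted p of 0.0618. It was 0.0401 among genes averaging 5 FPKM or more, 0.0469 after quantile normalization and 0.0419 by limma-voom. Other fits called 0 genes for siWFDC21P-1, so ADAM15 did not pass in them. These were the fits without the filter on low values, with the naming style, no term or the replicate block in place of the background, and with the replicate block beside it. The same held without siNC replicate 1, siWFDC21P-1 replicate 1, siWFDC21P-2 replicate 2 or siWFDC21P-2 replicate 3. The releasing proteases ADAM10 and ADAM17 were lower, with fitted differences of -0.67 ± 0.2 (SE) and -0.98 ± 0.39 (SE) and limma adjusted p of 0.224 and 0.328. ADAM12 was at 8.67 FPKM in siNC replicate 3 and 12.5, 28.0 and 21.7 in the siWFDC21P-2 libraries, a difference of 1.10 ± 0.38 (SE) with a limma adjusted p of 0.756.

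Among ligands, the smallest p belonged to HBEGF for siWFDC21P-2, with a fitted log2 difference of -1.29 ± 0.38 (SE) and a limma adjusted p of 0.756. For siWFDC21P-1, FGF2 differed by -1.18 ± 0.4 (SE), PDGFA by -0.68 ± 0.23 (SE) and PDGFB by -0.52 ± 0.16 (SE), with limma adjusted p of 0.266, 0.266 and 0.237. All 3 lay below their own control in every siWFDC21P-1 library. They were named for their small p in these same libraries, so the shared direction adds no support. Of the co-receptors, LRP4, a partner of MUSK, differed by -0.91 ± 0.23 (SE) for siWFDC21P-1 (limma adjusted p = 0.172). SDC4, a heparan sulfate carrier, was at 35.9 FPKM in siNC replicate 3 and 50.6, 77.3 and 89.9 in the siWFDC21P-2 libraries, a difference of 0.96 ± 0.32 (SE) with a limma adjusted p of 0.756. NRP1 and LRP6 differed by 0.53 ± 0.31 (SE) and 0.50 ± 0.33 (SE) for the same siRNA, both with a limma adjusted p of 0.756.

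Of the adaptors, PTPN11, the phosphatase SHP2 that passes signals to RAS, differed by 0.71 ± 0.19 (SE) for siWFDC21P-1 (limma adjusted p = 0.191). It was at 24.1, 34.4 and 45.7 FPKM in background 1 and 20.7 and 35.1 in background 2. IRS1 differed by 0.66 ± 0.24 (SE) and FRS2, the FGF receptor adaptor, by -0.51 ± 0.2 (SE), with limma adjusted p of 0.296 and 0.323. IRS2 differed by -0.91 ± 0.32 (SE) for siWFDC21P-2 (limma adjusted p = 0.756), beside the lower INSR values. Of the inhibitors, GRB10, which binds the insulin and IGF-1 receptors, differed by 0.82 ± 0.19 (SE) for siWFDC21P-1 (limma adjusted p = 0.152). PTPN12, a phosphatase, differed by -0.75 ± 0.26 (SE) and CBLB, a ubiquitin ligase, by 0.49 ± 0.2 (SE), with limma adjusted p of 0.269 and 0.341. ERRFI1 differed by -0.79 ± 0.26 (SE) for siWFDC21P-2 (limma adjusted p = 0.756).

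The size of change this design could detect was limited. In simulated data on 13014 genes, 100 were changed by 1 log2 unit and 100 by 2. The changed genes were drawn from those averaging over 2 on the log2(FPKM + 1) scale. Of those changed by 1 log2 unit, limma called 24% when siWFDC21P-1 was simulated and 15% when siWFDC21P-2 was. Of those changed by 2 log2 units it called 87% and 62%. A receptor in that range of levels that differed by less than 1 log2 unit would therefore usually not have been called. No change was simulated in lower genes.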

How the data were processed

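The 9 deposited tables, 1 per library, were used, and each holds FPKM per Ensembl gene as calculated by the authors. Per the submitters' processing notes, HISAT2 2.1.0, Bowtie2 2.2.3, HTSeq 0.6.0 and hg38 were used, in roles that are not stated. Whole reads were recovered from the FPKM values for 26297 of 26636 genes (98.7%), most with the summed exon length of GENCODE 29. The 13014 genes averaging 1 FPKM or more were tested on the log2(FPKM + 1) scale with limma 3.58.1 under R 4.3.3, using trended variances, group and background in the model, and Benjamini-Hochberg adjustment at 0.05. Backgrounds came from average-linkage clustering on 1 minus Pearson's r, split at a height of 0.15. Receptors were named if a library reached 10 FPKM, an unadjusted p was under 0.05, or all 6 knockdown libraries lay on one side of their control. Of each list, up to 4 genes by smallest p and up to 4 by the ratio between background means were named. The receptors, the lists and the grouping into backgrounds were chosen with earlier results of these data known. The model was tested on simulated data. No 2 libraries were duplicates. Sequences are from RefSeq.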

Additional observations from a re-analysis of the deposited data

Results flagged for a closer look

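RYK and PTK7 were singled out because every siWFDC21P-1 library lay below its own control and every siWFDC21P-2 library lay above it. For RYK the siWFDC21P-1 libraries differed from their controls by -0.33 to -0.08 and the siWFDC21P-2 libraries by 0.15 to 0.27 on the log2(FPKM + 1) scale, a gap between the means of 0.46. For PTK7 the ranges were -0.11 to -0.01 and 0.05 to 0.12, a gap of 0.13. The fitted difference between the siRNAs was 0.44 ± 0.24 (SE) for RYK and 0.14 ± 0.23 (SE) for PTK7, with limma adjusted p of 0.83 and 0.905, so neither passed the test. All siWFDC21P-2 libraries are in background 3 and no siWFDC21P-1 library is, so siRNA and background cannot be told apart in this comparison.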

How the results depend on the processing

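The count of receptors called was 0 for both siRNAs and for their difference under each alternative fit that gave a value. The count of all genes called for siWFDC21P-1 was 0 with the naming style in place of the background, with no term, with the replicate block in place of the background, with the replicate block beside it and without the filter on low values. It was 26 among genes averaging 5 FPKM or more, 16 after quantile normalization, 26 by limma-voom, and 0 to 153 when 1 library was left out. For siWFDC21P-2 it was 17 without the filter and 0 to 902 with 1 library left out, and for the difference 7 and 0 to 182. The highest counts came without siWFDC21P-2 replicate 1. Of the genes on the lists, 1 was called for siWFDC21P-1 at 5 FPKM, 1 after quantile normalization and 1 by limma-voom, with 0 to 1 when a library was left out, 0 to 10 for siWFDC21P-2 and 0 to 1 for the difference. Receptors on one side of their control numbered 2 to 7 (7.14 to 25.0%) when a knockdown library was left out, where the share over all genes was 20.1 to 26.8%.

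With no term beside the group, or with the replicate block in place of the background, siWFDC21P-2 differences turned to 1.32 for AXL, 0.59 for EGFR, 1.05 for FGFR1, 0.31 for WFDC21P, 0.18 for HBEGF, 1.8 for ERRFI1 and -0.29 for LRP6, the difference between the siRNAs to -0.21 for RYK, and siWFDC21P-1 differences to 0.04 for PDGFB and 0.19 for PDGFA. These fits set libraries of different backgrounds against each other. The fitted WFDC21P difference for siWFDC21P-1 ranged from -1.57 to 0.12 with 1 library left out, the latter without siNC replicate 1. The FPKM difference for siWFDC21P-2 ranged from -1.78 to 1.58 with 1 library left out; it was 1.58 without siNC replicate 3 and 0.37 without siWFDC21P-2 replicate 3. Same-numbered libraries did not pair (r of their deviations -0.683 to 0.667), and beside the background the replicate block changed no receptor call. FGFR4 ranged from an adjusted p of 0.0882 to 0.915 by limma with 1 library left out. Without siNC replicate 3, siWFDC21P-2 could not be fitted.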
